A study of Mus musculus with 11 samples.

Results

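A set of 9 genes of mast cells were followed across all samples of a p53-null mouse mammary hyperplasia series: the granule proteases Cpa3, Mcpt1, Mcpt2, Mcpt4, Cma1 and Tpsb2, and the receptors Fcer1a, Ms4a2 and Kit. Members were all probe sets that the array annotation assigns to a single gene among these 9. This gave 14 probe sets of the 12422 tested, 11 for the proteases and 3 for the receptors, and each of the 9 genes had at least 1 probe set.

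The study compared 2 preneoplastic lines, PN1a (n = 5 samples) and PN1b (n = 6 samples), on Affymetrix MG_U74Av2 arrays. Both lines arose as outgrowths on opposite sides of 1 mouse from transplanted Trp53-/- Balb/c mammary epithelium, and both were kept by passage through cleared mammary fat pads of wildtype female Balb/c recipients. PN1a has a high and PN1b a low tumor-forming potential. Whole glands holding the lesions were collected 8 weeks after transplantation. Each line is 1 lineage, and the epithelium alone lacks p53 while the stroma of the recipient, with its own immune cells, is wildtype. RNA therefore came from a mixture of cells, and in such bulk samples fewer mast cells and less of a transcript per cell cannot be told apart. Recipients were 3 weeks old at transplantation. The labels do not say whether each sample was a separate animal, so the p-values rest on the variation among these 11 samples, which may be technical.

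Mast cells are tissue-resident immune cells that store proteases, histamine and proteoglycans in granules and release them when antigen crosslinks IgE on their surface. They depend on Kit, the receptor tyrosine kinase for stem cell factor (Kitl), and in connective tissue and fat, including the mammary stroma, they carry chymases, tryptases and carboxypeptidase A3. Mast cells of the gut mucosa carry a different set of chymases, encoded by Mcpt1 and Mcpt2.

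Windows upstream of the start sites are shown for 4 protease genes that stand for both classes. Cma1 and Mcpt4 belong to mast cells of connective tissue, Mcpt1 belongs to those of mucosa, and Cpa3 is carried by both. The windows come from RefSeq (build GRCm38.p6, reference strain rather than Balb/c), cover the 250 bases before each start, and are written 5′ to 3′ on the strand of the gene. Capitals mark letters that match a GATA pattern, searched as AGATAA with its variant AGATAG and as TGATAA with its variant TGATAG on both strands. Cma1, Mcpt1 and Mcpt4 lie near each other on chromosome 14 and Cpa3 lies on chromosome 3. The positions are chr3:20242182-20242431 (minus strand) for Cpa3, chr14:55944676-55944925 (minus strand) for Cma1, chr14:56062311-56062560 (minus strand) for Mcpt4 and chr14:56017714-56017963 (plus strand) for Mcpt1.
Cpa3: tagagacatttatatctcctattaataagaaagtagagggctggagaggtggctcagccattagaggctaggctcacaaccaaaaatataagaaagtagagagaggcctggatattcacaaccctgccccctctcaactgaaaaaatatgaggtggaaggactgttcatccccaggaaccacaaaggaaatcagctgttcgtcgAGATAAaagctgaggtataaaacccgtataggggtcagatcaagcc
Cma1: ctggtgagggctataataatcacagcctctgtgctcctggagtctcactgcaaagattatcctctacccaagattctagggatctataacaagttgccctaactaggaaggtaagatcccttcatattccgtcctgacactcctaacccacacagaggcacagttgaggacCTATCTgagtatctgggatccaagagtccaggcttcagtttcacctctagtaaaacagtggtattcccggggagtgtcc
Mcpt4: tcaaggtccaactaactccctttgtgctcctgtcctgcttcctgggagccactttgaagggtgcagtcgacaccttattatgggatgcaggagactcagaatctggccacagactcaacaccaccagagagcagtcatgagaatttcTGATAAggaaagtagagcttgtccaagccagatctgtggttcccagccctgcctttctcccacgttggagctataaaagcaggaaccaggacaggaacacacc
Mcpt1: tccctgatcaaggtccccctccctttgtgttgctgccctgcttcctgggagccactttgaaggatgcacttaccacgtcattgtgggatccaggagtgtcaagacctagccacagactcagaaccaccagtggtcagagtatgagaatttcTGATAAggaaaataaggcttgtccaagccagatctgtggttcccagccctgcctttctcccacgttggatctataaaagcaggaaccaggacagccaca
The Mcpt4 and Mcpt1 windows were the closest pair of these 4, with 213 identical bases over 260 aligned columns (81.9%), and the matched TGATAA lay 103 and 99 bases before the start. Cpa3 and Cma1 shared 52.4% of aligned columns. In the Cpa3 window AGATAA lay 46 bases before the start, and in the Cma1 window the match, on the opposite strand, lay 79 bases before it. Windows were at hand for 7 of the 9 genes, and 6 of those held a match, against 26.5% of the 32851 windows of this length. The window of Kit held none of these letters. A match is a description of the sequence and says nothing of binding.

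All values are log2 of the deposited intensity, and levels of different probe sets are not compared. The median intensity of the 12422 probe sets was between 8.57 and 9.51 in every sample, and precision is set by how few arrays there are. None of the member values was at the lowest intensity of 1, but 10 of the 14 probe sets had a mean log2 intensity under the median of all probe sets (3.14). Only Cma1 102407_at, both Tpsb2 probe sets and Kit were above it.

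Samples of 1 line differed in ways the lines do not explain. The sample titles fall into forms: PN1a 1 and PN1a 2 are titled by numbers and PN1a 3 to PN1a 5 by letters, PN1b 1 to PN1b 4 by ranges, which may mean pools, and PN1b 5 and PN1b 6 singly. The titles also carry endings of unstated meaning. All 5 PN1a samples share 1 ending with PN1b 5 and PN1b 6 (set 1), PN1b 2 has another, and PN1b 1, PN1b 3 and PN1b 4 have the remaining one. The 2 number-titled PN1a samples stood apart on several measures. Their mean 18S intensity was 157 and 211, against 5.68 to 17.96 in the other 9 samples, and their log2 intensity of Fos, an immediate early gene, was 4.02 and 3.87 against 7.94 to 9.29. The ratio of the 5′ to the 3′ Gapdh control, which drops as transcripts are shortened, was 1.21 and 1.13 in these samples and ran from 0.192 to 0.801 elsewhere. On the same ratio for Actb they did not stand apart, at 0.732 and 0.669 against 0.207 to 0.758. Line differences without PN1a 1 and PN1a 2 are also given for each member probe set and where a call was lost.

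Cpa3, encoding carboxypeptidase A3, was measured by 2 probe sets that ran together over the 11 samples (r = 0.71). On 102351_at the number-titled PN1a samples read 1.86 and 1.87, the letter-titled ones 2.33, 3.04 and 3.55, the range-titled PN1b samples 2.77, 2.63, 2.30 and 3.07, and the single-titled ones 3.65 and 4.16. PN1a 1 and PN1a 2 were thus the lowest of all samples, PN1b 5 and PN1b 6 the highest, and PN1a 5 lay next to them, so that the lines overlapped. PN1a averaged 2.53 ± 0.75 (SD, n = 5) against 3.10 ± 0.69 (SD, n = 6) for PN1b, a log2 difference of -0.57 (SE 0.38, 95% interval -1.39 to 0.26, limma adjusted p = 0.457). On 162348_r_at the difference was -0.41 (SE 0.39, limma adjusted p = 0.619). Neither passed the test.

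Cma1 encodes a chymase of connective tissue mast cells. On 102407_at, the brightest of its 3 probe sets, the PN1a samples read 2.64 and 1.97 (number-titled) and 3.24, 3.56 and 4.61 (letter-titled). The PN1b samples read 3.36, 3.57, 3.13 and 2.70 (range-titled) and 4.58 and 4.66 (single-titled). As with Cpa3, PN1a 1 and PN1a 2 were lowest, while PN1a 5, PN1b 5 and PN1b 6 formed the top. The means of 3.20 ± 0.99 (SD, n = 5) and 3.67 ± 0.79 (SD, n = 6) differed by -0.46 (SE 0.46, 95% interval -1.46 to 0.53, limma adjusted p = 0.643). The dimmer probe sets 102408_g_at and 102406_at gave -0.29 and -0.14. The 3 probe sets did not track one another: r was 0.52 between the first pair, 0.07 between 102407_at and 102406_at, and -0.29 between the dimmer pair.

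Tpsb2 encodes a mast cell tryptase. On 93622_at the values were 2.77 and 3.23 in the number-titled and 3.99, 3.86 and 4.55 in the letter-titled PN1a samples, and 3.20, 3.28, 3.75 and 3.08 in the range-titled and 4.91 and 4.46 in the single-titled PN1b samples. The same 3 samples, PN1a 5, PN1b 5 and PN1b 6, were the highest, and the lines covered nearly the same range. The difference was -0.10 (SE 0.39, 95% interval -0.93 to 0.73, limma adjusted p = 0.919). The other probe set, 92711_at, stayed between 2.74 and 3.53 in all samples and correlated with the first at r = 0.13 only.

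Mcpt4, a chymotrypsin-like protease of connective tissue mast cells, was the member that came nearest to a difference between the lines. PN1a samples read 0.93, 0.61, 1.17, 0.79 and 2.56, and PN1b samples 1.95, 2.43, 2.29, 2.06, 1.95 and 2.53. Of the 5 PN1a samples, 4 (PN1a 1 to PN1a 4) were below every PN1b sample, and PN1a 5 was above every one. The means were 1.21 ± 0.78 (SD, n = 5) and 2.20 ± 0.25 (SD, n = 6), a difference of -0.99 (SE 0.31, 95% interval -1.65 to -0.33) with a limma adjusted p of 0.103. PN1a 5 decided this value: without it the difference was -1.33 with a limma adjusted p of 0.00469, in a comparison where 1.83% of all probe sets were called lower. Without PN1a 1 and PN1a 2 it was -0.69 (limma adjusted p = 0.346). The linear intensities of PN1a 1 to PN1a 4 were only 1.53 to 2.25, near the lowest intensity of 1. On log2(value + 16) the Mcpt4 difference over all samples shrank to -0.15 (limma adjusted p = 0.204).

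The probe sets of the mucosal chymase genes did not share 1 order of samples. For Mcpt1, 94728_f_at read 3.38, 2.70, 2.42, 2.57 and 1.59 in PN1a and 1.94, 1.69, 1.98, 1.62, 1.27 and 2.83 in PN1b, so that PN1a 1 was highest and PN1a 5, top for Cpa3 in its line, was lowest in PN1a. The difference was 0.64 (SE 0.32, limma adjusted p = 0.299). The suffix _f marks probes that match several members of a gene family, so this signal cannot be assigned to Mcpt1 alone. The second probe set, 94729_r_at, gave 0.28 (limma adjusted p = 0.686), ranged from 1.35 to 3.54, and did not follow the first (r = -0.18). Mcpt2 was dim, between 0.48 and 2.22 in PN1a and between 0.68 and 1.53 in PN1b, and PN1a 5 was its highest sample. The Mcpt2 difference was 0.11 (SE 0.28, limma adjusted p = 0.871).

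Among the receptors, Kit alone was above the median intensity of all probe sets. It read 4.42, 6.17, 5.64, 5.90 and 5.55 in PN1a and 6.22, 5.52, 5.91, 6.43, 6.12 and 6.73 in PN1b. PN1a 1 was the lowest sample and PN1b 6 the highest, and the other values interleaved. The difference was -0.62 (SE 0.30, 95% interval -1.27 to 0.04, limma adjusted p = 0.292). Kit is also carried by luminal progenitor cells of the mammary epithelium and by melanocytes, so its level in a whole gland is no measure of mast cells by itself.

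The IgE receptor subunits were near the floor of the array. Fcer1a, the chain that binds IgE, read 1.72, 0.52, 0.20, 1.49 and 1.91 in PN1a and 0.52, 0.91, 0.17, 0.36, 3.13 and 0.66 in PN1b, where PN1b 5 alone was high. Its difference was 0.21 (SE 0.50, limma adjusted p = 0.859). Ms4a2, the beta chain that amplifies the signal, stayed between 1.36 and 2.32 in all 11 samples, with a difference of 0.04 (SE 0.21, 95% interval -0.40 to 0.48). Both chains were under the median intensity of all probe sets, so these arrays give little on the IgE receptor.

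**Figure D1:**
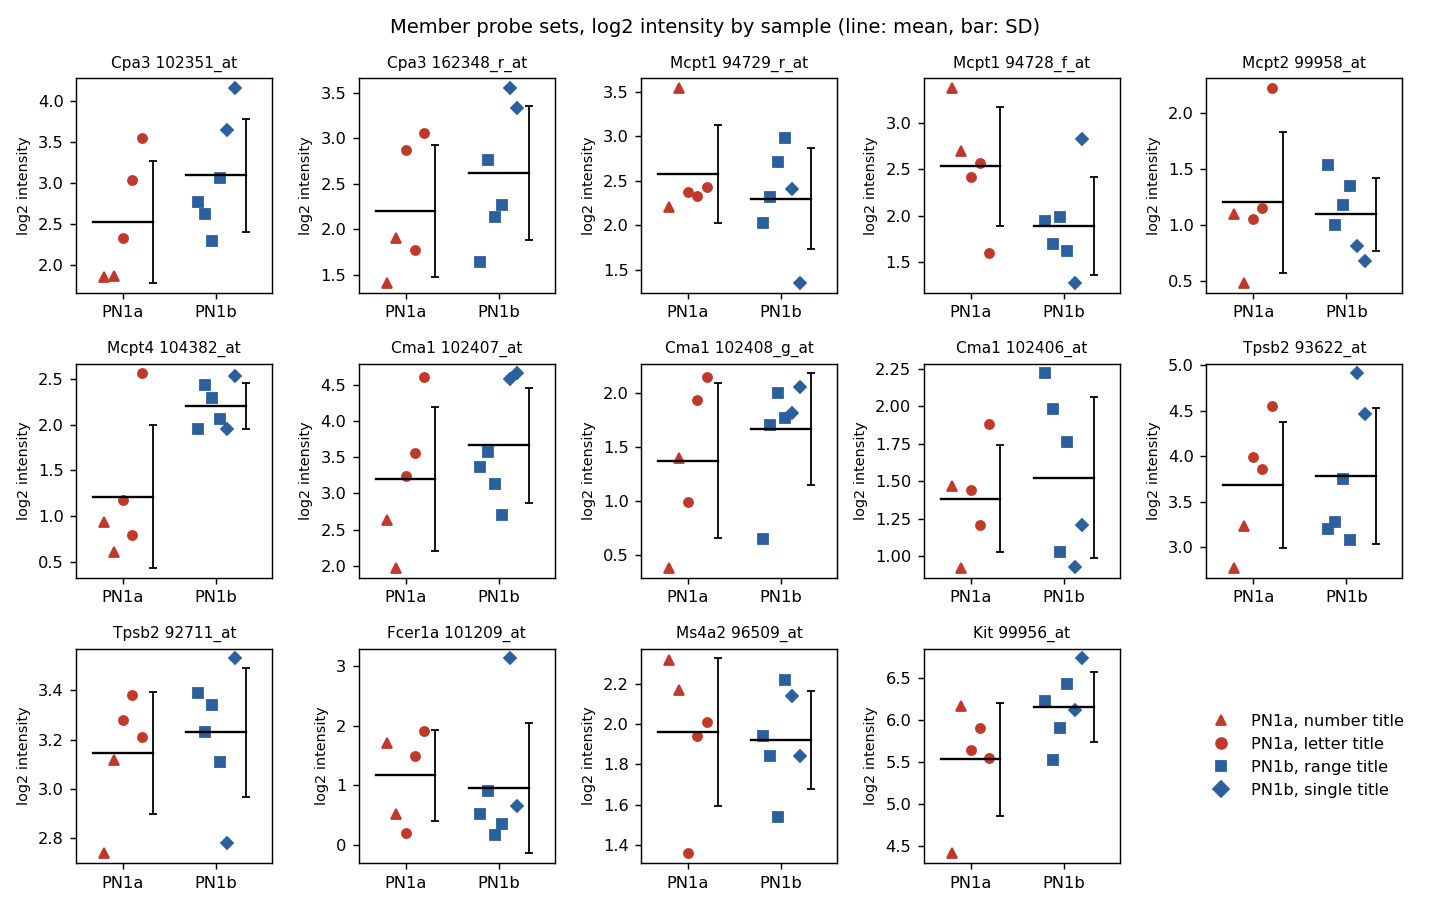
Log2 intensity (y axis) of the 14 member probe sets in each PN1a (red, n = 5) and PN1b (blue, n = 6) sample, with marker shapes for the form of the sample title, lines for means and bars for SD. PN1a and PN1b overlap on all 14, and PN1a 5, PN1b 5 and PN1b 6 are the 3 highest samples for Cpa3 102351_at, Cma1 102407_at and Tpsb2 93622_at.

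Between PN1a and PN1b, 0 of the 14 member probe sets were called at a limma adjusted p under 0.05 and a fold of at least 1.5, against 2.49% of all 12422. Mcpt4 was the 1 member with an unadjusted p under 0.05, against 18.9% of all. The methods' t-test likewise put 0 members past its own threshold on p and fold, where 271 probe sets were higher and 442 lower, and 0 after Benjamini-Hochberg adjustment. All 14 members overlapped between the lines, whereas 3.96% of all probe sets did not. The differences were below 0 for 9 members and above 0 for 5 (51.4% of all probe sets were below 0), with a median of -0.12 against -0.01 over all. Of the 11 protease probe sets, 8 were below 0. The 95% intervals reached past 1 log2 unit for Cpa3, Cma1, Mcpt1, Mcpt4, Fcer1a and Kit, so that differences of this size between the lines are undecided for these genes. In data simulated from these samples, 41% of probe sets changed by 1 log2 unit and 94% of those changed by 2 were recovered. The noise was drawn independently and the changed probe sets were picked at random from all, so these are not recovery rates for the members.

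Because PN1a lies in title ending set 1 as a whole, the lines were also compared within it, as 5 PN1a samples against PN1b 5 and PN1b 6. The Cpa3 differences and those of Cma1 102407_at and Tpsb2 93622_at were larger there in size, while Mcpt1 94728_f_at (0.48), Tpsb2 92711_at (-0.01) and Mcpt4 were not or hardly so. Cpa3 differed by -1.38 on 102351_at and -1.24 on 162348_r_at, Cma1 102407_at by -1.42, Mcpt4 by -1.03 and Kit by -0.89, and Tpsb2 93622_at, at -0.10 over all samples, by about -1. None of the members was called, with limma adjusted p from 0.654 to 0.995, and 0.145% of all probe sets were. In this set 10 of the 14 members were below 0 (50.9% of all probe sets), with a median of -0.65 against -0.01 over all. The direction of 3 members turned: Fcer1a went to -0.73, Ms4a2 to -0.03 and Cma1 102406_at to 0.31. Without PN1a 1 and PN1a 2, with all PN1b samples, Cpa3 102351_at gave -0.12, while Cma1 102407_at and Tpsb2 93622_at turned to 0.14 and 0.35, and none of the members was called (1.34% of all probe sets were). In that fit Cpa3 162348_r_at gave -0.05, Kit -0.46, Mcpt2 0.38, Fcer1a 0.24 and Cma1 102406_at -0.01. Mcpt1 gave 0.305 on 94728_f_at and 0.08 on 94729_r_at.

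**Figure D2:**
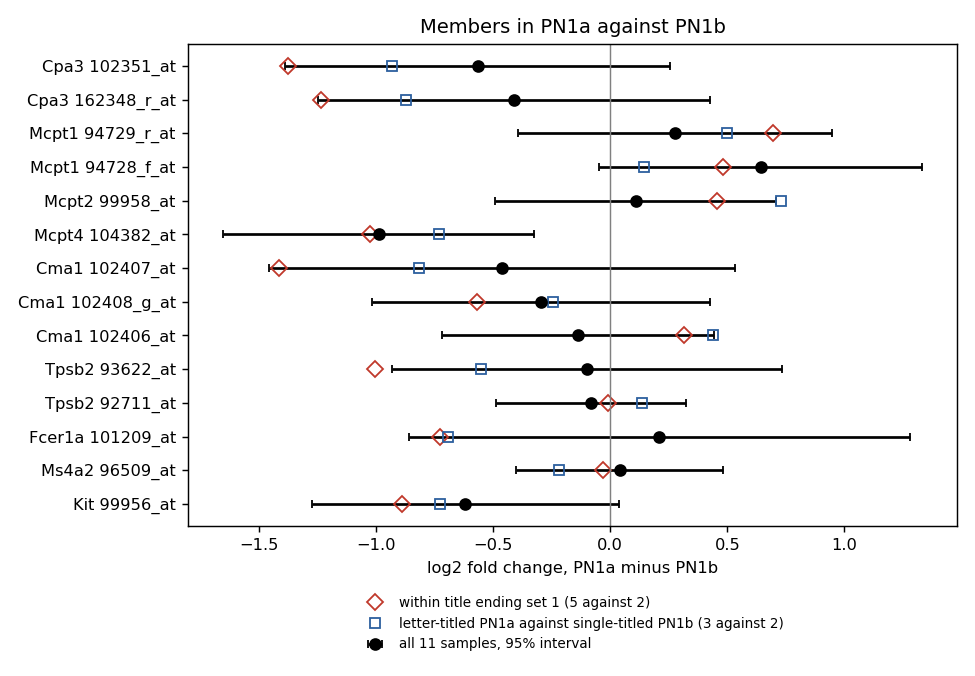
Log2 fold change of PN1a minus PN1b (x axis) for the 14 member probe sets over all 11 samples with 95% intervals (black), within title ending set 1 (red) and for letter-titled PN1a against single-titled PN1b (blue). The interval excludes 0 for Mcpt4 alone, which had an adjusted p of 0.103, and the Cpa3 probe sets, Cma1 102407_at and Tpsb2 93622_at move left within set 1.

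The spread of the proteases within each line was then set against the title forms, using 1 limma fit with 4 cells of samples. Within PN1a, Cma1 102407_at was lower in the 2 number-titled than in the 3 letter-titled samples, by -1.50 (SE 0.40, limma adjusted p = 0.0461), and so was Tpsb2 93622_at, by -1.13 (SE 0.30, limma adjusted p = 0.0458). Cpa3 102351_at gave -1.11 and did not pass (limma adjusted p = 0.0855). These were 2 called members of 14, both lower, in a contrast where 7.31% of all probe sets were called and 5.33% called lower. Tpsb2 93622_at lost its call when any 1 PN1a sample was left out, and Cma1 102407_at lost it without PN1a 1, PN1a 2, PN1a 4 or PN1a 5. Without PN1a 3, Cma1 102407_at (limma adjusted p = 0.0338) and Cpa3 102351_at (limma adjusted p = 0.0329) were called. On the log2(value + 16) scale neither Cma1 102407_at (-0.54, limma adjusted p = 0.0799) nor Tpsb2 93622_at was called. Tpsb2 93622_at missed on fold alone there (-0.49, limma adjusted p = 0.0450).

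Within PN1b the single-titled samples read higher than the range-titled ones for the same genes. Tpsb2 93622_at differed by 1.36 (SE 0.29, limma adjusted p = 0.0607), Cma1 102407_at by 1.43 (SE 0.38, limma adjusted p = 0.112), and Cpa3 by 1.21 on 102351_at (SE 0.34, limma adjusted p = 0.121) and 1.24 on 162348_r_at. For these 4 probe sets the single-titled pair lay above all 4 range-titled samples, and for Mcpt2 it lay below them (-0.52), where 26.5% of all probe sets did not overlap in this contrast, and 0 of the 14 members were called (0.869% of all probe sets were). Mcpt4 did not follow: it differed by 0.06, and Ms4a2 by 0.10. Where letter-titled PN1a and single-titled PN1b samples were compared directly, Cpa3 102351_at gave -0.93, Cma1 102407_at -0.82, Mcpt4 -0.73 and Tpsb2 93622_at -0.55, with 0 members called and 0.419% of all probe sets called.

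**Figure D3:**
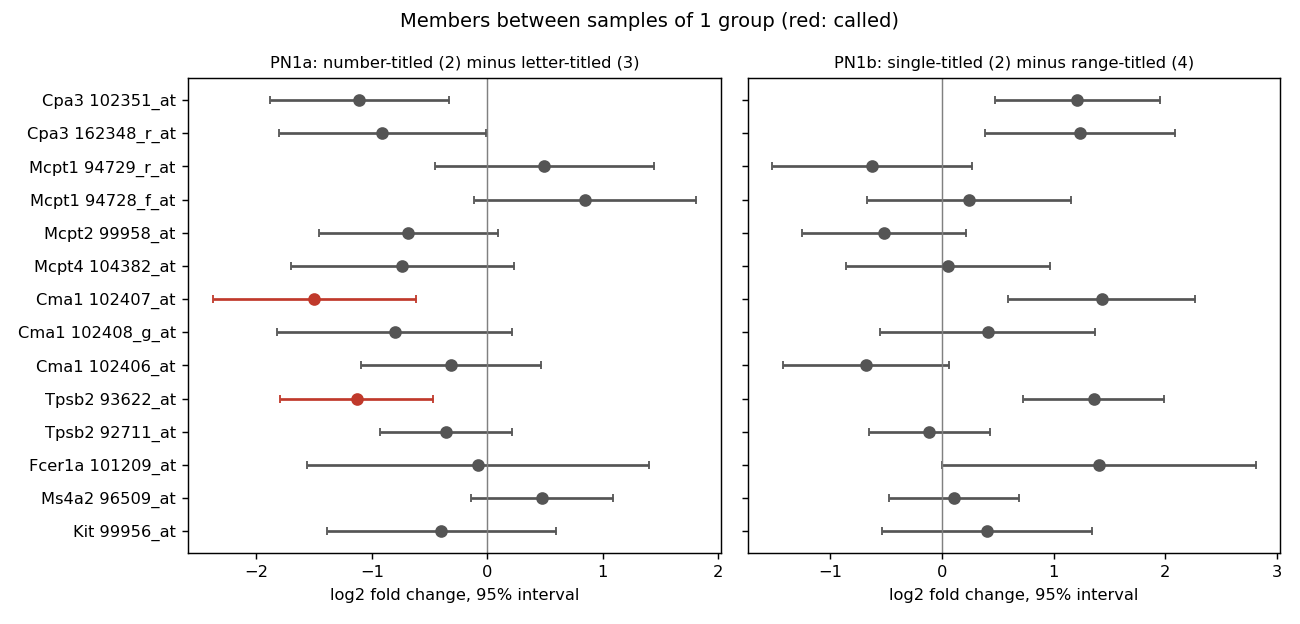
Log2 fold change with 95% interval (x axis) of the 14 member probe sets between samples of the same line, number-titled minus letter-titled PN1a (left) and single-titled minus range-titled PN1b (right), with called members in red. Cma1 102407_at and Tpsb2 93622_at were called in PN1a, at -1.50 and -1.13, and 0 members were called in PN1b.

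To ask whether the genes ran together from sample to sample, the probe set with the highest mean of each of the 8 other genes was correlated with Cpa3 102351_at. Cma1 followed Cpa3 closely (r = 0.87, permutation p = 0.00058, adjusted p = 0.00464 over 8 relations, rho = 0.82, permutation p = 0.00302, adjusted p = 0.0242, n = 11). Tpsb2 followed less closely (r = 0.74, permutation p = 0.0102, adjusted p = 0.0407, rho = 0.64, permutation p = 0.0388, adjusted p = 0.155, n = 11). Without PN1b 6 and PN1a 1, the 2 samples farthest from the Cpa3 median, r was 0.83 for Cma1 (exact permutation adjusted p = 0.0291) and 0.63 for Tpsb2 (exact permutation adjusted p = 0.195), so Tpsb2 passed with those samples but not without them. Within title ending set 1 (n = 7) r was 0.95 for Cma1 (exact permutation adjusted p = 0.0254) and 0.88 for Tpsb2 (exact permutation adjusted p = 0.0468). By rho Cma1 passed neither without the 2 farthest samples (exact permutation adjusted p = 0.201) nor within set 1 (exact permutation adjusted p = 0.0540). Tpsb2 did not pass by rho in either subset. The remaining title sets hold too few samples. Without PN1a 1 and PN1a 2 (n = 9) neither passed, with r = 0.80 for Cma1 (exact permutation adjusted p = 0.0841) and r = 0.63 for Tpsb2.

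The other genes did not pass in the full set of samples. Mcpt4 had r = 0.62 (permutation adjusted p = 0.117, rho = 0.56), and within set 1 its r was 0.86 (exact permutation adjusted p = 0.0788, n = 7). Kit had r = 0.56, which fell to -0.01 without the 2 farthest samples. Mcpt1 had r = -0.55 (permutation adjusted p = 0.119), the 1 negative r, but its rho was -0.18. For Fcer1a r was 0.37, for Mcpt2 0.19 and for Ms4a2 0.04. Fcer1a had r = 0.80 without the 2 farthest samples (exact permutation adjusted p = 0.0291, n = 9), where the high value of PN1b 5 was still included. Its rho there was 0.70 and did not pass (exact permutation adjusted p = 0.201).

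**Figure D4:**
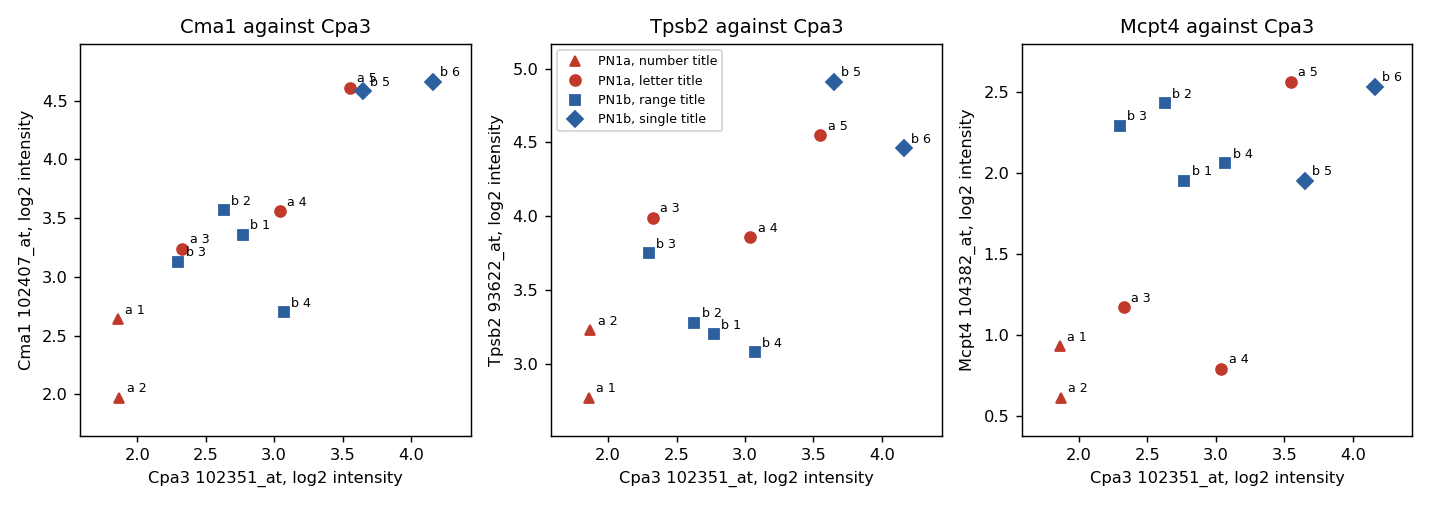
Log2 intensity of Cma1 102407_at, Tpsb2 93622_at and Mcpt4 104382_at (y axes) against Cpa3 102351_at (x axis), 1 point a sample, PN1a in red and PN1b in blue, with shapes for the title forms and each sample's line letter and number beside it. Cma1 rises with Cpa3 over both lines (r = 0.87), and for Mcpt4 4 of the 5 PN1a samples lie under all PN1b samples.

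Nearly the reverse order of samples appeared in the Gapdh ratio, a measure of transcript length that was looked at after the values of the members were known. The ratio was 1.21, 1.13, 0.570, 0.578 and 0.240 in PN1a and 0.801, 0.790, 0.732, 0.646, 0.460 and 0.192 in PN1b, so that the samples with the highest Cpa3, PN1b 6, PN1b 5 and PN1a 5, had the lowest ratios. Over 9 relations of member genes to the log2 ratio, Cpa3 had r = -0.90 (permutation p = 6.0e-05, adjusted p = 5.4e-04, rho = -0.84, adjusted p = 0.0103, n = 11). Cma1 had r = -0.86 (permutation adjusted p = 0.00148, rho = -0.79, adjusted p = 0.0154). Tpsb2 had r = -0.81 (permutation adjusted p = 0.00537, rho = -0.86, adjusted p = 0.0103). All 3 still passed by r without PN1b 6 and PN1a 5, at -0.84, -0.78 and -0.82 (exact permutation adjusted p = 0.0234, 0.0374 and 0.0234, n = 9). By rho none of the 3 passed there (exact permutation adjusted p = 0.166, 0.257 and 0.0969). Without PN1a 1 and PN1a 2, r was -0.84 for Cpa3 and -0.81 for Cma1 (exact permutation adjusted p = 0.0299 for both, n = 9) and -0.74 for Tpsb2, which no longer passed (exact permutation adjusted p = 0.0662, n = 9). By rho Cpa3, Cma1 and Tpsb2 did not pass in that subset (exact permutation adjusted p = 0.195, 0.228 and 0.0744). Within set 1 (n = 7) Cpa3 was at -0.92, Mcpt4 at -0.91, Cma1 at -0.91 and Tpsb2 at -0.83. Kit (r = -0.43), Mcpt4 over all samples (r = -0.60, permutation adjusted p = 0.116), Mcpt1, Mcpt2, Fcer1a and Ms4a2 did not pass. On the Actb ratio PN1b 6 (0.207) and PN1a 5 (0.261) were lowest too, but PN1b 4 (0.486) lay under PN1b 5 (0.511). At its upper end PN1b 1 and PN1b 2 (0.758 and 0.753) lay above PN1a 1 and PN1a 2 (0.732 and 0.669). No relation of the members to the Actb ratio is given here. The part of transcript length in the protease values was not tested.

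**Figure D5:**
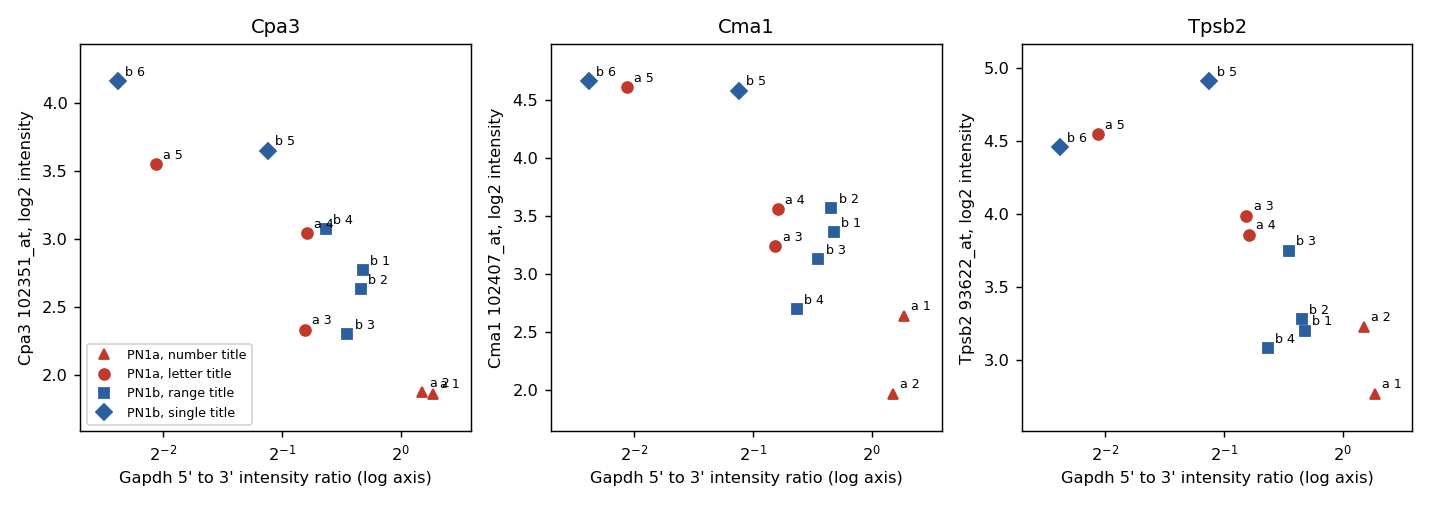
Log2 intensity of Cpa3 102351_at, Cma1 102407_at and Tpsb2 93622_at (y axes) against the ratio of the 5′ to the 3′ Gapdh control (x axis, log scale), 1 point a sample, with colors for the lines and shapes for the title forms. All 3 genes are higher where the ratio is lower, with r = -0.90, -0.86 and -0.81.

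Among 5620 probe sets above the intensity filter, those most like Cpa3 102351_at across the 11 samples were Exosc5 (r = 0.94), a subunit of the RNA exosome, Efnb2 (r = 0.93), the ligand ephrin-B2, Ddx3x (r = 0.92), an RNA helicase, Penk (r = 0.91), proenkephalin, and Stk24 (r = 0.90), a kinase. They were measured in the same RNA samples and on the same arrays as Cpa3, and none is a textbook mast cell gene. The cause of these correlations was not tested. For the standardized mean of Cpa3, Mcpt4, Cma1 and Tpsb2 the nearest were Ddx3x (r = 0.94), Arcn1 (r = 0.91), Sertad1 (r = 0.91), Zwint (r = 0.90) and Efnb2 (r = 0.90). That mean was lowest in PN1a 2 (-1.32) and PN1a 1 (-1.19) and highest in PN1b 6 (1.32), PN1a 5 (1.14) and PN1b 5 (1.09). Without PN1a 1 and PN1a 2, r with Cpa3 was 0.96 for Exosc5 and 0.89 for Efnb2. None of these genes was called between the lines, the lowest limma adjusted p being 0.318 (Penk).

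Among growth signals of mast cells, 8 of 14 listed genes were measured, and 1 was called, against 0.836% called higher and 1.84% called lower of 8251 genes with 1 probe set each. This was Kitl, the ligand of Kit. It read 5.42, 5.11, 6.65, 6.53 and 7.19 in PN1a and between 7.44 and 7.83 in PN1b, with no overlap, and it was lower in PN1a by -1.47 (SE 0.33, limma adjusted p = 0.0342). The call held in 4 of 11 fits that left out 1 sample. It was lost without PN1a 1, 2 or 4 and without PN1b 1, 2, 3 or 4, where limma adjusted p reached 0.0828. Within set 1 the difference was -1.27 (limma adjusted p = 0.676), and without PN1a 1 and PN1a 2 it was -0.86 (limma adjusted p = 0.0715). Il3, Il4 and Il9, cytokines that promote mast cell growth, differed by 0.09, 0.52 and 0.12 and were not called. Il3 and Il9, like Syk, Gata1, Gata2, Mitf, Hdc and Srgn, are named for their role in mast cells, after their values were known.

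Of 19 measured genes of IgE receptor signaling, 2 were called higher and 1 lower in PN1a, with a list median of 0.02 against -0.03 over all genes. Plcg2, a phospholipase that raises calcium after receptor engagement, read 2.45, 2.99, 2.78, 2.75 and 3.92 in PN1a and between 4.47 and 5.74 in PN1b. It was lower by -2.29 (SE 0.29, limma adjusted p = 7.9e-04) and kept its call in all 11 fits that left out 1 sample. The Plcg2 call also held without PN1a 1 and PN1a 2 together (-2.12, limma adjusted p = 0.00865), though within set 1 Plcg2 gave -1.81 (limma adjusted p = 0.340). Vav1, an exchange factor of blood cells, was higher by 1.36 on 97562_r_at (SE 0.26, limma adjusted p = 0.0175), and its other probe sets gave 0.39 and 0.09. The Vav1 call was lost without PN1b 1, without PN1a 1 and PN1a 2 together (1.16, limma adjusted p = 0.0874) and within set 1 (0.74, limma adjusted p = 0.672). Fcgr2b, an inhibitory IgG receptor that macrophages and B cells also carry, was higher by 1.39 (SE 0.28, limma adjusted p = 0.0217), a call lost without PN1b 1 or PN1b 4, without PN1a 1 and PN1a 2 together (1.15, limma adjusted p = 0.0675) and within set 1 (0.97, limma adjusted p = 0.672). The shared gamma chain Fcer1g gave 0.68 (limma adjusted p = 0.297), and Syk, the kinase it recruits, 0.02.

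The other mast cell lists held no called gene. All 12 transcription factors were measured (median 0.12). The lowest limma adjusted p was that of Zfpm1, a partner of GATA factors (0.56, adjusted p = 0.175), and Runx1 and Spi1, factors of blood cell lineages, gave 0.42 and 0.61. Gata2, which mast cells need, gave -0.74, Mitf 0.04 and Gata1 0.26. Of 17 granule and mediator genes 10 were measured (median 0.09). Hdc, the enzyme that makes histamine, differed by -0.13, Srgn, the core protein of granule proteoglycans, by 0.07, and Ctsg, cathepsin G, by 0.71. Cd63, a granule membrane protein found in many cells, gave 0.80 (limma adjusted p = 0.122). The 5 measured receptors of mast cell mediators had a median of 0.16, with C3ar1, also a macrophage gene, at 1.44 (limma adjusted p = 0.093).

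Markers of other cells that carry member genes or share the gland were read beside these values. No gene was called among 5 basophil and eosinophil markers (median -0.04), 6 melanocyte markers (-0.17) or 6 luminal progenitor markers (0.51), and no listed marker was at the lowest intensity in all samples. The summed intensity of luminal progenitor markers ranged in PN1a from 290.3 to 1803, against 346 to 1176 for PN1b, and that of melanocyte markers from 94.2 to 178 against 106 to 270. Of 12 macrophage markers 3 were called higher in PN1a (Aif1, Cd68 and C1qb), with a median of 1.22 and summed intensities of 863 to 1404 in PN1a against 321 to 911 in PN1b. The second probe sets of Cd68 and C1qb gave 0.04 and 0.10. Of 9 adipocyte markers (median 0.05) Lpl was called lower, by -1.81 on 95611_at, while 160083_at gave -0.66 (limma adjusted p = 0.439). Of the 4 others with the smallest adjusted p, Lipe (0.48) and Cidec (0.33) were above 0 and Cd36 (-0.49) and Pparg (-0.51) below. The summed intensity of adipocyte markers, Lpl included, was 70.2 to 182.6 in PN1a against 213.7 to 286.6 in PN1b, with no overlap. This sum is linear and mostly follows Lpl 95611_at, whose mean log2 intensity was 5.76 in PN1a and 7.57 in PN1b. The next brightest of these genes, Lep, had means of 4.06 and 4.005, so the gap largely repeats the Lpl difference. Aif1 kept its call in all 11 fits that left out 1 sample, while Lpl, Cd68 and C1qb kept theirs in 3, 3 and 2 of them, each losing it without PN1a 1, PN1a 3, PN1b 1, PN1b 3, PN1b 4 or PN1b 6. When PN1a 1 and PN1a 2 were both left out, Aif1 (1.42) and Lpl (-0.94) were called and Cd68 (limma adjusted p = 0.0726) and C1qb (limma adjusted p = 0.189) were not. Within set 1 none of the 4 was called, Aif1 being at 1.20 (limma adjusted p = 0.507), and with the ending as a random block Aif1 alone was. The summed intensities of the number-titled PN1a samples were the lowest for adipocyte markers (70.2 and 70.9 against 138 to 287), endothelial markers (108 and 227 against 259 to 391.9) and mammary epithelial markers (224 and 553 against 1093 to 1705), beside their low Cpa3, Cma1 and Tpsb2 values. Such sums follow the brightest genes of a list and do not show that its other genes were low. These were Lpl for adipocytes and, for mammary epithelium, Krt8 and Krt18 (mean log2 intensity in PN1b 8.99 and 9.65). None of the markers of mammary epithelium, skeletal muscle, fibroblasts, endothelium, lymphocytes or skin was called. The part of the makeup of the glands in the member values was not tested.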

How the data were processed

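The deposited values are linear intensities, which the authors computed in dChip from perfect match minus mismatch probes and normalized by quantiles. The sources used here do not give a dChip version. The 66 control probe sets were left out and the remaining 12422 tested on log2(intensity). Probe sets were named through the platform annotation: 10833 had 1 symbol, 396 had several and 1193 had none. PN1a and PN1b were compared with limma 3.58.1 (R 4.3.3) over all 11 samples, with Benjamini-Hochberg adjustment, and a probe set was called at an adjusted p under 0.05 and a fold of at least 1.5. The methods' t-test was run on the same values. Alternatives covered title endings as fixed or random block, repeated normalization, an intensity filter, log2(value + 16), title forms and leaving out samples. Permutation tests were two-sided (100000 resamples, all orders under 10 samples). Genes named were all members, called list genes and, of other list genes, up to 4 with the smallest adjusted p, and the 5 genes most like Cpa3 and most like the protease mean. The limma step was tested on simulated data. The members and lists were chosen with earlier results of these data known. Alternatives on title forms and the relation to the Gapdh ratio were added after seeing the data.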

Additional observations from a re-analysis of the deposited data

Results flagged for a closer look

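In 4 of 28 groups tested (14 probe sets in each line), 1 sample lay far from the others, measured as its gap to the nearest sample over the whole range of the group, and chance gives this in about 1 in 20 groups. Mcpt4 in PN1a 5 had a gap of 0.713 of the range, at 2.56 against 0.61 to 1.17 in the other PN1a samples. Mcpt1 94729_r_at in PN1a 2 had a gap of 0.828, at 3.54 against 2.20 to 2.43. Cma1 102408_g_at in PN1b 1 had a gap of 0.745, at 0.65 against 1.70 to 2.06. Fcer1a in PN1b 5 had a gap of 0.75, at 3.13 against 0.17 to 0.91.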

How the results depend on the processing

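Over all probe sets, 108 were called higher and 201 lower in PN1a. These counts were 50 and 95 by the methods' t-test after adjustment, 12 and 19 with the title ending as a fixed block, 6 and 12 within set 1, 58 and 104 with it as a random block, and 30 and 22 for letter-titled PN1a against single-titled PN1b. The filter gave 303 lower, log2(value + 16) 65 higher, and leaving out PN1a 1 and PN1a 2 gave 82 lower. Leaving out 1 sample gave 44 to 182 higher and 79 to 377 lower, the lowest without PN1b 3 and PN1b 1 and both highest without PN1b 5. Called members numbered 0 to 1 when 1 sample was left out, the 1 being Mcpt4 without PN1a 5, and 0 in the other alternatives. Within PN1a the 2 called members became 0 on log2(value + 16) and 0 to 2 when 1 sample was left out, the 2 without PN1a 3 being Cma1 and Cpa3. Within PN1b, log2(value + 16) gave 1 called member in place of 0.

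Directions turned for members that were not called. In the fixed block and within set 1 these were Cma1 102406_at (0.31), Fcer1a (-0.73) and Ms4a2 (-0.03). Without PN1a 1 and PN1a 2 they were Cma1 102407_at (0.14) and 102408_g_at (0.0267), Tpsb2 93622_at (0.35) and 92711_at (0.06) and Ms4a2 (-0.15). In letter-titled PN1a against single-titled PN1b they were Cma1 102406_at (0.44), Tpsb2 92711_at (0.135), Fcer1a (-0.695) and Ms4a2 (-0.22), and on log2(value + 16) Fcer1a (-0.0035). When 1 sample was left out, values ran from -0.1467 to 0.2883 for Mcpt2 (turned without PN1a 5), -0.2617 to 0.002 for Cma1 102406_at (PN1b 1), -0.3175 to 0.1275 for Tpsb2 93622_at (PN1a 1, PN1a 2, PN1b 5 or PN1b 6), -0.174 to 0.0175 for Tpsb2 92711_at (PN1a 1) and -0.05 to 0.19 for Ms4a2 (PN1a 1, PN1a 2 or PN1b 3). Cpa3, Mcpt4, Kit and both Mcpt1 probe sets kept their direction in every alternative run. Of the relations to Cpa3, r turned for Mcpt2 without PN1a 1 and PN1a 2 (-0.0802), for Ms4a2 within set 1 (-0.14) and after repeated normalization (-0.0025), and for Kit without the 2 farthest samples (-0.0077). The cause was not tested.

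With 1 sample left in an arm, that sample was assumed to vary like the others. The title endings of set 2 and set 3 hold PN1b alone, so there the ending and the line cannot be told apart. Low signal limits Mcpt2, Mcpt4, Fcer1a and Ms4a2, where log2(value + 16) shrinks each difference. No paired analysis was possible because the labels give the lines no shared replicate numbers.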
